A study of Mus musculus with 6 samples.

Results

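Ribosomal protein genes encode the protein part of the cytosolic ribosome, the machine that translates all nuclear-encoded mRNA. They were taken as all protein-coding rows of the deposited table whose symbol starts with Rpl or Rps and a digit, with Rplp0, Rplp1, Rplp2 and Rpsa, and without the S6 kinases (Rps6k) and Rps19bp1. This gave 88 of the 21135 listed genes, 54 with a large-subunit and 34 with a small-subunit symbol. Of these, 77 were canonical subunit genes (46 large, 31 small) and 11 were paralogues or intronless retrocopies annotated as protein-coding. Another 3 genes of GENCODE M21 met the rule but had no row (Rpl10l, Rpl36-ps4 and Rpl9-ps1). Fau, which encodes a small-subunit protein as a fusion, lies outside the rule by its name and is described separately.

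The RNA came from DN3 thymocytes of C57BL/6 mice, the CD4 and CD8 double-negative thymocytes that express Cd25 and pass the checkpoint for the T-cell receptor beta chain. The mutant group had 3 libraries from mice in which both alleles of NMe, the Notch-bound distal enhancer of Myc, carry mutated GATA sites 1 and 2. The wild-type group had 3 libraries from mice with an unaltered NMe. The labels name no Cre or other transgene, and give neither the age nor whether each library is a separate animal or a pool, and p-values therefore reflect library-to-library spread only, which may be technical.

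The large and small subunits hold 1 copy of almost every ribosomal protein, and cells make these proteins in near-equal numbers. Their mRNAs begin with a cytosine and a run of pyrimidines, the 5' terminal oligopyrimidine (TOP), through which the kinase mTOR and the protein Larp1 control their translation. MYC is known to raise the transcription of ribosomal protein genes and ribosomal RNA, and thymocytes need a large ribosome supply when they expand after the beta-chain checkpoint. Ribosomal protein genes are short, are transcribed at very high levels, often carry small nucleolar RNAs (snoRNAs) in their introns, and have given rise to many processed pseudogenes.

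Recovered depth was 38.6 to 48.3 M reads in mutant libraries and 42.4 to 51.3 M reads in wild-type libraries. Myc, the gene that the enhancer serves, had 5562, 4612 and 6165 normalised reads in the mutant libraries, against 18041, 19223 and 20196 in the wild-type libraries, without overlap, and its log2 change (mutant minus wild type) was -1.82 ± 0.12 (SE; adjusted p = 4.22e-05, limma). Mycn, which encodes the related N-MYC, went the other way, with 4434, 3439 and 5422 normalised reads in the mutant libraries, against 1955, 1358 and 1023 in the wild-type libraries, also without overlap, and a log2 change of 1.64 ± 0.23 (adjusted p = 0.00126, limma). All 9 DN3 markers were listed, with sums of 377108 to 433317 normalised reads in the mutant and 278411 to 316026 in wild type; 5 of them were higher and 1 (Rag1) was lower. Of the markers of other cells, Ms4a1, Pax5, Foxn1, Krt5, Krt8 and Ncr1 were not listed. The erythroid sum was 34.2 to 56.1 in the mutant and 16.0 to 8177 in wild type, where wild type replicate 2 held the haemoglobin reads. Of the 4 listed gamma-delta and innate markers, Tcrg-C1 and Sox13 were higher in the mutant, with sums of 38683 to 68023 normalised reads in the mutant and 26346 to 33179.6 in wild type, and their part in the results below was not tested. Reads of the mitochondrial genome made up 1.05 to 1.18% in the mutant and 0.986 to 1.27% in wild type.

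The annotated start sites were searched for CTTTC, a cytosine followed by pyrimidines. A match near an annotated start need not be a TOP start, which lies at the first base of the mRNA. RefSeq promoters (GRCm38.p6) were found for 64 of the 88 genes. The letters CTTTC on the sense strand within 20 bases of an annotated start, which may overlap one another, were present in 20 of the 64 (31.3%), against 6.44% of 27025 genes with a promoter. They stood in 15 of 39 large-subunit and 5 of 25 small-subunit genes. The windows below run from 30 bases before the annotated start to 20 bases from it (base 31 is the start), with CTTTC in capitals, and are shown for 6 canonical genes and the retrocopy Rps27rt, whose own start carries the motif.
Rplp2: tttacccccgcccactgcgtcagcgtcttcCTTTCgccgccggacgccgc
Rpl38: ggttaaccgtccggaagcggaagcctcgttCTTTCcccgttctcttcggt
Rpl35: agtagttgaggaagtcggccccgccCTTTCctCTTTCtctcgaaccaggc
Rpl28: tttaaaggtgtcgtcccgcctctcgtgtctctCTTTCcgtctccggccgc
Rpl5: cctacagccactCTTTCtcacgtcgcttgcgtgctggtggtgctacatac
Rps27: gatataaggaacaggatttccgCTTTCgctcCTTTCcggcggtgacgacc
Rps27rt: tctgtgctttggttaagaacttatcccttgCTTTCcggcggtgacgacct
They lie at chr7:141447621-141447670, plus strand (Rplp2), chr11:114668550-114668599, plus strand (Rpl38), chr2:39005112-39005161, minus strand (Rpl35), chr7:4792935-4792984, plus strand (Rpl28), chr5:107900498-107900547, plus strand (Rpl5), chr3:90213629-90213678, minus strand (Rps27) and chr9:114982720-114982769, minus strand (Rps27rt). Rplp2, Rpl38 and Rps27rt have CTTTC exactly at the start, Rps27 has it shortly before and just after, and Rpl5 has it upstream of the annotated start. The median log2 change was -0.76 for genes with and -0.77 for genes without CTTTC. In the 300-base promoters, CCGGAA on either strand, the core bound by ETS factors, was in 36 of 64 (56.3%, against 16.7% of all genes), AAGATGG on either strand in 10 (15.6%, against 7.28%), and CACGTG, the E-box bound by MYC, in 6 (9.38%, against 8.09%). A match describes the letters only, and the medians with and without each of these motifs lay between -0.79 and -0.74.

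Ribosomal protein RNA took a smaller part of the mutant transcriptome. The 88 genes held 2.46, 2.08 and 1.92% of all reads in the mutant libraries, against 3.59, 3.53 and 3.42% in the wild-type libraries. Every mutant library lay below every wild-type library. Rpl39l had too few reads for the test. Of the 87 genes tested, 79 were lower, 1 was higher and 7 did not pass the test, with a median log2 change of -0.77, against 0.03 over all 17815 tested genes. Over all tested genes, 10.9% were lower and 7.94% were higher by the same rule (limma, adjusted p under 0.05). By edgeR on the recovered reads 78 of the 87 were lower, against 10.2% of all tested genes. All 3 mutant values lay below all 3 wild-type values for 80 of the 87, against 20.3% of all tested genes, and above them for 1, against 18%. Without wild type replicate 2, the library with haemoglobin reads, 74 were lower, and without wild type replicate 1 also 74. Over all tested genes, 1079 of 17845 were lower without wild type replicate 2 and 1435 of 17849 without wild type replicate 1. Bulk RNA cannot tell fewer cells of a type from less RNA per cell.

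The canonical genes moved by similar amounts. Of 77, 73 were lower, 0 were higher and 4 did not pass the test by limma. All 77 log2 changes were negative, so 0 were higher at an unadjusted p under 0.05, and 0 were higher by edgeR or DESeq2. The median was -0.79, which is 1.73-fold lower, with quartiles at -0.86 and -0.69 and the extremes at -1.12 (Rpl3) and -0.11 (Rps14). The canonical medians by library, relative to the wild-type mean of each gene, were -0.53, -0.84 and -0.98 in the mutant libraries and 0.02, 0.03 and -0.05 in the wild-type libraries. Mutant replicate 1 was the highest mutant library for 76 of the 77 genes, and mutant replicate 3 the lowest for 69. Without mutant replicate 1 the members' median was -0.90, and without mutant replicate 3 it was -0.67.

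**Figure D1:**
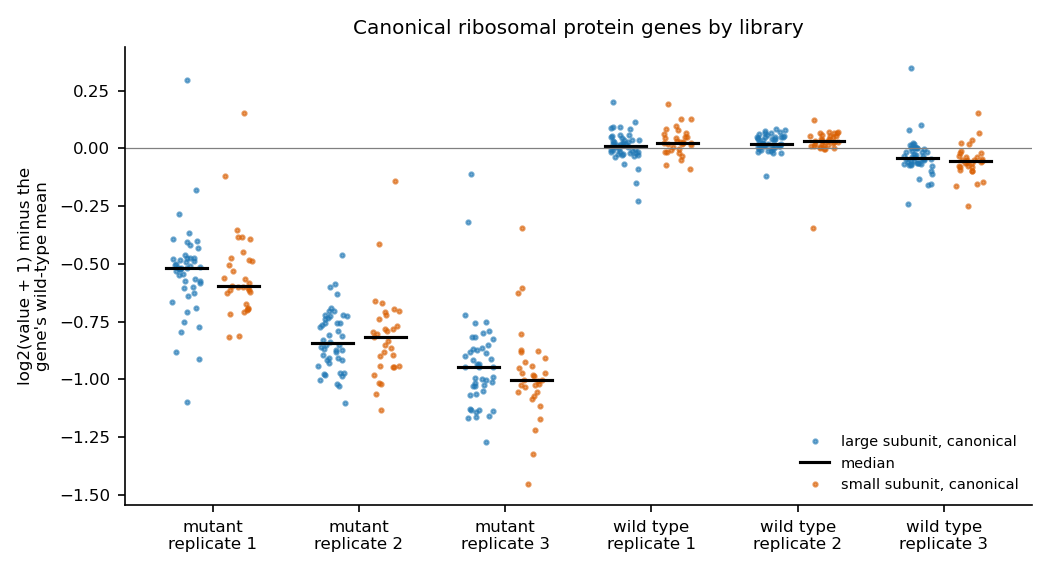
The y axis gives log2(value + 1) of each canonical gene minus its wild-type mean, with 1 point per gene, large-subunit genes left and small-subunit genes right in each library, and a line at the median. The mutant libraries have medians of -0.53, -0.84 and -0.98 over all 77 genes, and the wild-type libraries lie near 0.

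**Figure D2:**
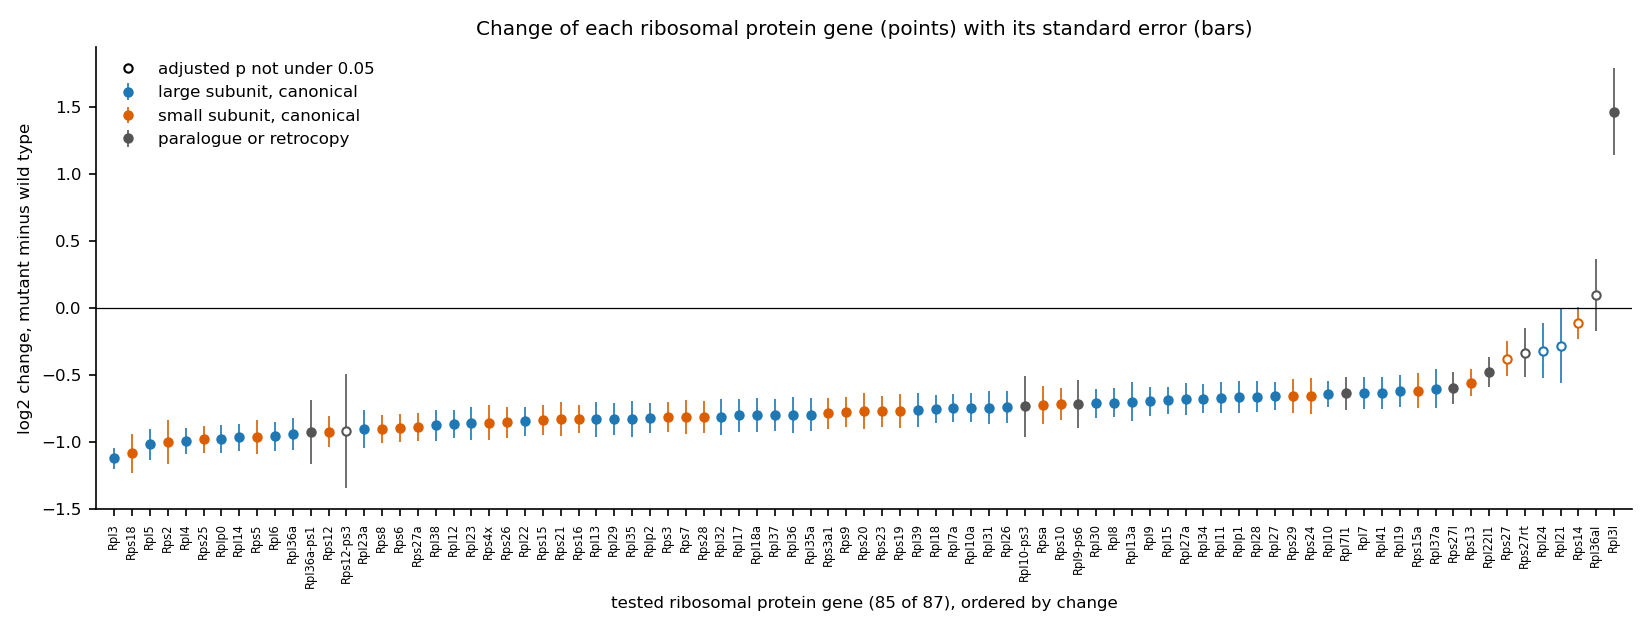
The y axis gives the log2 change, mutant minus wild type, of 85 of the 87 tested genes ordered by change, with bars of 1 standard error; open points did not pass the adjusted p of 0.05. Most points lie between -1.12 and -0.5, and Rpl3l is the only called gene above 0.

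The large and small subunits had close medians. Among large-subunit canonical genes 44 of 46 were lower with a median of -0.76, and among small-subunit canonical genes 29 of 31 were lower with a median of -0.82. The reads of the 54 large-subunit symbols over those of the 34 small-subunit symbols gave ratios of 1.18, 1.17 and 1.21 in the mutant libraries, against 1.21, 1.23 and 1.24 in the wild-type libraries. The ranges overlapped, since mutant replicate 3 lay just above wild type replicate 1. The mean ratio was lower in the mutant (1.18, against 1.22), while by medians the small subunit had the larger fall. The small-subunit gene Rps14 alone held 4.55% of the canonical reads in the mutant and 2.87% in wild type. Its part in the ratio was not tested.

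Rpl3 and Rpl4 were among the 5 lowest canonical genes. Rpl3, which lines the peptidyl transferase centre (chr15:80077791-80091868, minus strand, GRCm38), had 22777, 22740 and 21709 normalised reads in the mutant libraries, against 49495, 48165 and 48869 in the wild-type libraries. The groups were far apart and each was tight. Its log2 change was -1.12 ± 0.08 (adjusted p = 5.89e-05), 2.18-fold lower. Rpl10 and Rpl8, which also border that centre, changed by -0.64 and -0.71. Rpl4, an arm of the exit tunnel, had 27431, 25735 and 23097 normalised reads in the mutant libraries, against 47504, 50141 and 54143 in the wild-type libraries. Its groups did not overlap and the log2 change was -0.99 ± 0.10 (adjusted p = 0.000216). The other tunnel genes, Rpl17 and Rpl39, changed by -0.80 and -0.76, and the 4 genes at the tunnel's mouth (Rpl19, Rpl23a, Rpl26 and Rpl35) were all lower, with a median of -0.79.

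Rpl5 and Rpl11, which carry the 5S RNA into the large subunit and bind MDM2 when assembly fails, were both lower. Rpl5 had 13239, 13585 and 10314 normalised reads in the mutant libraries, against 23812, 25738 and 25253 in the wild-type libraries. All mutant values lay below all wild-type values. The log2 change was -1.02 ± 0.11 (adjusted p = 0.000444), against -0.67 ± 0.11 for Rpl11 (adjusted p = 0.00339). Rplp0, the base protein of the stalk that recruits translation factors, had 30778, 25934 and 23860 normalised reads in the mutant libraries, against 52137, 52606 and 53158 in the wild-type libraries. The groups were far apart (adjusted p = 0.000348). The stalk genes Rplp0, Rplp1 and Rplp2 changed by -0.98, -0.67 and -0.82, and Rpl12, at the base of the stalk, by -0.87. Rpl38, whose loss gives the tail-short mouse, changed by -0.88, and Rpl29, dispensable in the mouse, by -0.83. The remaining 25 large-subunit canonical genes other than Rpl22 have no role given here: 24 of them were lower, with changes from -0.97 (Rpl14) to -0.28 (Rpl21) and a median of -0.75.

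In the small subunit, Rps18 and Rps2 were the lowest. Rps18, at the head of the subunit, had 16979, 13599 and 11901 normalised reads in the mutant libraries, against 32570, 32416 and 25047 in the wild-type libraries. Mutant replicate 1 was the highest of the mutants and wild type replicate 3 the lowest of the wild types, and the groups stayed apart. The log2 change was -1.09 ± 0.15 (adjusted p = 0.00104). Rps2, at the mRNA entry channel with Rps3, had 24565, 21256 and 14286 normalised reads in the mutant libraries, against 38751, 39048 and 39653 in the wild-type libraries. The spread was wide among mutant libraries and narrow among wild-type libraries. The log2 change was -1.003 ± 0.17 (adjusted p = 0.00299), and that of Rps3 was -0.82.

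Rps25, a head protein that several viral internal ribosome entry sites depend on, had 17590, 15252 and 14314 normalised reads in the mutant libraries, against 29454, 31086 and 32458 in the wild-type libraries, a log2 change of -0.98 ± 0.10 (adjusted p = 0.000281), and its groups did not overlap. Rps6, the substrate of the S6 kinases, changed by -0.90 ± 0.10 (adjusted p = 0.000521). Rps15 and Rps23 of the decoding centre changed by -0.84 and -0.77, and Rps10 and Rps20, ubiquitinated when ribosomes collide, by -0.72 and -0.77. Rps19, Rps24 and Rpl35a, mutated in human Diamond-Blackfan anaemia, changed by -0.77, -0.66 and -0.80. Rpsa, the gene of human congenital asplenia, had 25111, 23566 and 20696 normalised reads in the mutant libraries, against 43504, 30042 and 42430 in the wild-type libraries. Wild type replicate 2 was the lowest wild type, yet above every mutant library. The log2 change was -0.73 ± 0.14 (adjusted p = 0.00695), and that of Rps27a, a ubiquitin fusion, was -0.89. The 16 small-subunit genes with no role listed, Rps18, Rps25 and Rps27 among them, had a median of -0.82, and 15 were lower.

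Levels per kb of exon nearly kept their order. In wild type the canonical genes spanned 223 to 43051 normalised reads per kb with a median of 9878. In the mutant they spanned 177 to 25129 with a median of 5715. Exon lengths joined all annotated transcripts, and that of Rpl9 (3081 bases, 1 block) equals its whole gene span. Levels per kb therefore depend on the annotation. The lowest gene, Rpl24 in both genotypes, has exons that overlap another annotated gene. Rps3a1 was the highest at 25129 in the mutant and 43051 in wild type, and Rpl36 (21552 in the mutant and 37072 in wild type) and Rplp0 (16189 in the mutant and 31726 in wild type) were also among the highest. Across the 77 genes the log2 levels of the genotypes correlated at r = 0.991 (Spearman 0.989), and the change correlated weakly with level (r = -0.18), with shared sequence (r = -0.19), with the number of snoRNA genes inside (r = -0.21) and with exon length (r = -0.01), as descriptions over genes of the same libraries.

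**Figure D3:**
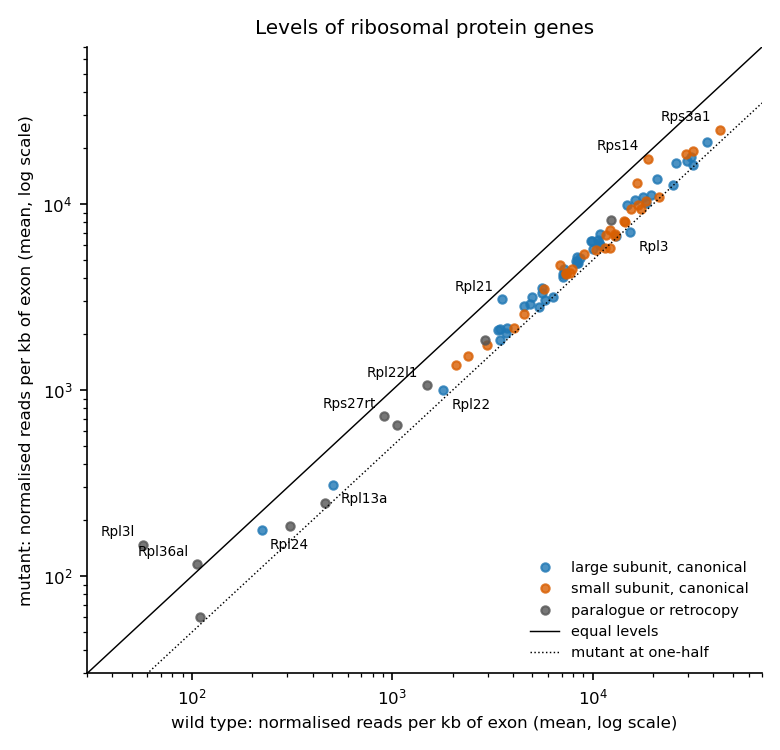
Both log axes give normalised reads per kb of exon, mutant on the y axis and wild type on the x axis, as means of 3 libraries. Most canonical genes lie between the line of equal levels and the dotted line where the mutant has 0.5 times the wild-type level, and Rps14 and Rpl21 lie nearest to equality.

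Of the canonical total, 71 of 77 genes kept their share to within 0.25 on the log2 scale. Shares of 17 genes lay wholly above wild type in the mutant, 16 wholly below and 44 overlapped, so many of the small shifts still separated the genotypes. Such shares were taken only within the canonical genes, and no rate over all tested genes stands beside these counts. The 4 canonical genes that did not pass the test had the largest gains. Rps14, at the mRNA exit channel and lost in the human 5q deletion syndrome, took 4.55 ± 0.12% of the canonical reads in the mutant and 2.87 ± 0.05% in wild type (SD, n = 3 each). Its levels were 50039, 40790 and 35452 normalised reads in the mutant libraries, against 46412, 45677 and 43105 in the wild-type libraries, which overlapped, with a log2 change of -0.11 ± 0.12 (adjusted p = 0.560). Rps27 had 16027, 13038 and 11419 normalised reads in the mutant libraries, against 18986, 17703 and 15639 in the wild-type libraries, also overlapping, with a log2 change of -0.38 ± 0.13 (adjusted p = 0.0702, and 0.0187 without mutant replicate 1). Rpl24, whose mutation gives the belly spot and tail mouse, had 201, 165 and 182 normalised reads in the mutant libraries, against 262, 234 and 192 in the wild-type libraries and changed by -0.32 ± 0.20 (adjusted p = 0.301), and 80.1% of its 100-base stretches are shared with other annotated genes, among them the overlapping Gm28037, which had no row. Rpl21 had 14549, 5811 and 10985 normalised reads in the mutant libraries, against 10120, 10926 and 15113 in the wild-type libraries. Mutant replicate 2 was low and the other two mutant libraries lay within the wild-type range, with a log2 change of -0.28 ± 0.28 (adjusted p = 0.525). Rpl3 and Rps18 had the largest losses of share, of -0.35 and -0.31.

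Shared sequence, by which reads can be given to a copy, was counted for every gene as 100-base exon stretches found in another annotated gene. For the 8 canonical genes with under 5% shared stretches, 8 of 8 were lower, with a median of -0.82, and for the 20 with over 50%, 19 of 20 were lower, with a median of -0.83. Pseudogene rows were counted by symbol, so copies under other names were left out. The 160 rows used here had Rpl or Rps and a digit. They made up 1.86 to 1.98% of ribosomal protein reads in the mutant and 1.79 to 1.87% in wild type. The test set of 170 rows also took in pseudogenes of Rplp0, Rplp1, Rplp2 and Rpsa. Of these, 139 were tested, with a median of -0.78. By limma's adjusted p 56 were lower, against 10.9% of all tested genes, and 0 were higher, against 7.94%. By limma 2 were higher at an unadjusted p under 0.05, and by adjusted p 0 were higher by edgeR and 1 by DESeq2. snoRNA genes lie within 30 of the 88 genes (34.1%), 58 in all, against 186 of 13577 other protein-coding genes (1.37%). The canonical hosts had a median of -0.81 and the canonical genes without a snoRNA -0.76.

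Rpl22 and its paralogue Rpl22l1 were both lower, and Rpl22l1 had the smaller change. Rpl22 (ENSMUSG00000028936.15, chr4:152325742-152334071, plus strand) is needed in the mouse for the survival of alpha-beta lineage thymocytes at the beta-chain checkpoint, and Rpl22l1 (ENSMUSG00000039221.10, chr3:28805436-28807424, plus strand) encodes a close paralogue whose mRNA is repressed by Rpl22 protein in mouse cells. Rpl22 had 3203, 2989.7 and 2565 normalised reads in the mutant libraries, against 5349, 5184 and 5184 in the wild-type libraries. The groups were far apart, with a log2 change of -0.85 ± 0.11 (adjusted p = 0.000841). Rpl22l1 had 2133, 2141 and 2056 normalised reads in the mutant libraries, against 3285, 2961 and 2623 in the wild-type libraries. Its mutant libraries were even and lay below every wild-type library, with a log2 change of -0.48 ± 0.11 (adjusted p = 0.0165). Without wild type replicate 1 or wild type replicate 2 its adjusted p rose to 0.0640 and 0.0643. The reads of Rpl22l1 as a percent of those of Rpl22 were 66.6, 71.6 and 80.1% in the mutant libraries, against 61.4, 57.1 and 50.6% in the wild-type libraries. Each mutant library had a higher percent than each wild-type library. The mean log2 ratio was higher by 0.37 in the mutant, with an exact two-sided permutation p of 0.1, the smallest that 3 against 3 allows, and 0.275 after Benjamini-Hochberg adjustment over 11 pairs. Per kb of exon, Rpl22l1 stood at 107% of Rpl22 in the mutant and 82.5% in wild type. The exon length used for Rpl22l1 was 1989 bases in 1 block, its whole gene span. These percents therefore depend on the annotated length and do not rank the 2 genes. No 100-base stretch of Rpl22 is found in another gene and 42.9% of those of Rpl22l1 are, with Gm33051 on the other strand overlapping its exons, and the longest run of identical bases between the 2 transcripts is 26.

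The start regions of the pair are shown with that of Rpl3l, the only gene called higher. The windows run from 100 bases before the annotated start to 20 bases from it, all on the plus strand.
Rpl22: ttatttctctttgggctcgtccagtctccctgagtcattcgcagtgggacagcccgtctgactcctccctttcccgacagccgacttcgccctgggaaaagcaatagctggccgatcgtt
Rpl22l1: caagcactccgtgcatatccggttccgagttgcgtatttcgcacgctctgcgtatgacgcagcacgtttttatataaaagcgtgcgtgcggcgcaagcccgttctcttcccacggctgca
Rpl3l: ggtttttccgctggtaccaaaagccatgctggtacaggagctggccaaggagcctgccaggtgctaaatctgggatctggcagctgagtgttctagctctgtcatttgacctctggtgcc
They lie at chr4:152325626-152325745, chr3:28805408-28805527 and chr17:24727726-24727845 (GRCm38.p6). None has CTTTC within 20 bases of the start, and RefSeq lists a further start for Rpl22 and for Rpl3l.

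Rpl3l was the only ribosomal protein gene called higher. Rpl3l (ENSMUSG00000002500.15, chr17:24727820-24736143, plus strand) encodes the form of Rpl3 found in heart and skeletal muscle ribosomes. It had 244, 209 and 274 normalised reads in the mutant libraries, against 144, 80.2 and 56.1 in the wild-type libraries. All mutant libraries lay above all wild-type libraries, at levels far under those of Rpl3. The log2 change was 1.46 ± 0.33 (adjusted p = 0.0125, and 0.0546 without the variance trend), and none of its 100-base stretches is shared. As a percent of Rpl3 it was 1.07, 0.920 and 1.26% in the mutant libraries, against 0.291, 0.167 and 0.115% in the wild-type libraries, a difference of 2.59 in the log2 ratio (exact permutation p = 0.1, adjusted 0.275).

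Rps27l and Rpl7l1 were also lower, and Rpl36al did not pass the test. Rps27l, a target of p53 that encodes a near copy of Rps27, had 7965, 6114 and 6072 normalised reads in the mutant libraries, against 9461, 10523 and 10366 in the wild-type libraries, and changed by -0.60 ± 0.12 (adjusted p = 0.00750). Its percent of Rps27 was 49.7, 46.9 and 53.2% in the mutant libraries, against 49.8, 59.4 and 66.3% in the wild-type libraries, with overlapping ranges (exact permutation p = 0.2). Rpl7l1, a paralogue of Rpl7, changed by -0.64 ± 0.12 (adjusted p = 0.00561) and Rpl7 by -0.64 ± 0.12 (adjusted p = 0.00558), so the log2 ratio differed by less than 0.01. Without the variance trend the adjusted p was 0.0580 for Rps27l, 0.0506 for Rpl7l1 and 0.0534 for Rpl7, so that none of the 3 passed. Rpl36al, a retrogene of Rpl36a, had 125, 131 and 215 normalised reads in the mutant libraries, against 119, 164 and 148 in the wild-type libraries and did not pass the test (log2 0.10 ± 0.27, adjusted p = 0.836), while Rpl36a changed by -0.94 ± 0.12 (adjusted p = 0.000847). As a percent of Rpl36a, Rpl36al was 2.09, 2.68 and 5.01% in the mutant libraries, against 1.24, 1.69 and 1.55% in the wild-type libraries, which did not overlap, and mutant replicate 3 stood above the rest (exact permutation p = 0.1). Rpl39l, the testis paralogue of Rpl39, had 0 in every mutant library and 2.12, 20.05 and 4.45 normalised reads in the wild-type libraries. A count of 0 allows up to 3 reads in a library, so no difference is drawn at this depth.

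**Figure D4:**
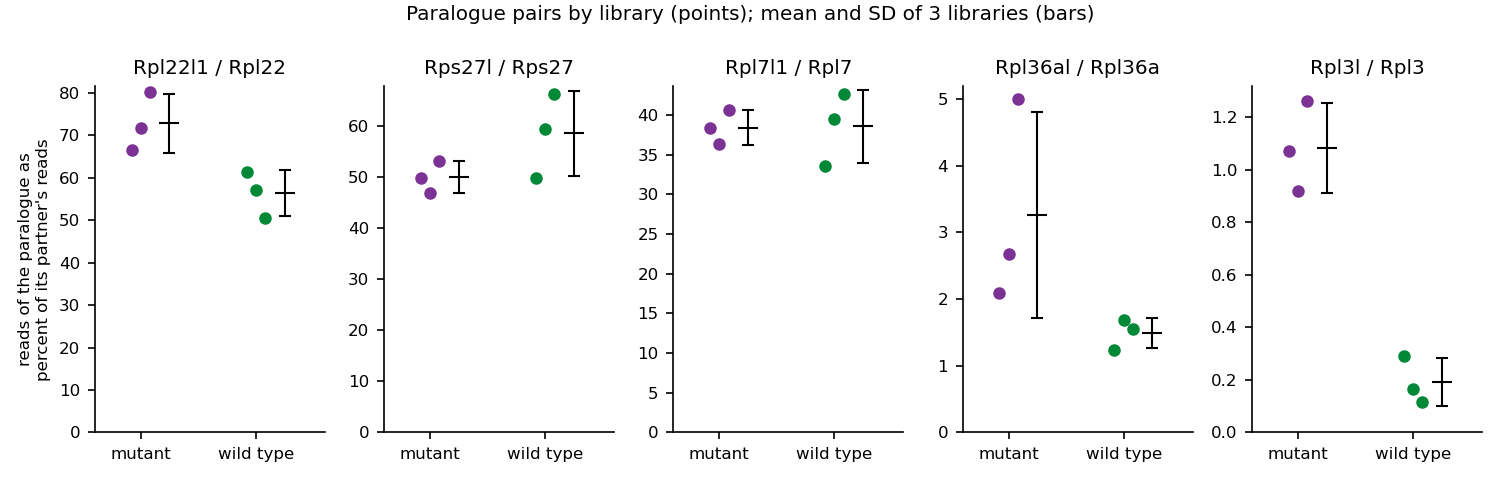
Each panel gives the reads of a paralogue as a percent of its partner's, with 1 point per library, the 3 mutant libraries left and the 3 wild-type libraries right, and the mean with its SD. Groups are apart for Rpl22l1, Rpl36al and Rpl3l and overlap for Rps27l and Rpl7l1.

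The retrocopies share long identical runs with their partners (281 to 740 bases), so their reads cannot be told from those of the parent with certainty. Rps12-ps3, Rpl9-ps6, Rpl10-ps3, Rpl36a-ps1 and Rps27rt had log2 changes of -0.92, -0.72, -0.74, -0.93 and -0.34, of which Rpl9-ps6 (adjusted p = 0.0215), Rpl10-ps3 (adjusted p = 0.0499) and Rpl36a-ps1 (adjusted p = 0.0230) passed. The call of Rpl10-ps3 was lost in 16 of 22 alternatives, that of Rpl9-ps6 without the variance trend (adjusted p = 0.0668), without wild type replicate 1 (0.0689) or 2 (0.0625), and that of Rpl36a-ps1 without mutant replicate 3 (0.0530) or any 1 of the wild-type libraries (0.0593 to 0.0738). Their log2 ratios to the parent differed between genotypes by 0.09 at most.

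Genes outside the rule that work with ribosomal proteins were counted from 4 lists. Fau, which encodes the subunit protein eS30 behind a ubiquitin-like peptide, changed by -0.49 ± 0.11 (adjusted p = 0.0145) with 6950.4, 5639.9 and 5293 normalised reads in the mutant libraries, against 8446, 8252 and 8289 in the wild-type libraries, with no overlap, and it did not pass without mutant replicate 2 or wild type replicate 2. Of 22 other mRNAs known for a TOP start, 17 were lower, 1 was higher and 4 did not pass, with a median of -0.69. Over all tested genes 10.9% were lower and 7.94% higher. Npm1, a nucleolar chaperone, changed by -1.40, Eef1g, an elongation factor subunit, by -0.97, and Vim, an intermediate filament, was the higher one (1.16). Of 17 listed chaperones and importins of ribosomal proteins 13 were lower, against 10.9% of all tested genes, with a median of -0.60. They were led by Grwd1 (-1.05), Ipo4 (-1.08) and Rrs1 (-0.94). Of 14 regulators of TOP mRNA translation 3 were lower, against 10.9% of all tested genes, with a median of -0.15. They were Eif4ebp1, an mTOR target (-2.05), Larp4 (-0.68) and Eif4e (-0.36). Larp1 had 8705, 4613 and 10583 normalised reads in the mutant libraries, against 14965, 15333 and 5038 in the wild-type libraries, which overlapped.

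The proteins of the mitochondrial ribosome come from other nuclear genes. Of 77 tested 34 were lower by limma and 33 by edgeR, against 10.9% and 10.2% of all tested genes. Their median was -0.35, against -0.79 for the canonical cytosolic genes. All 77 changes were negative and 0 genes were higher, also at an unadjusted p under 0.05 and by edgeR and DESeq2. Without mutant replicate 2 or wild type replicate 2, 17 of the 77 were lower, and without wild type replicate 3, 22. The calls over all tested genes fell as well. They were 1394 of 17821 lower without mutant replicate 2, 1079 of 17845 without wild type replicate 2 and 1341 of 17844 without wild type replicate 3.

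**Figure D5:**
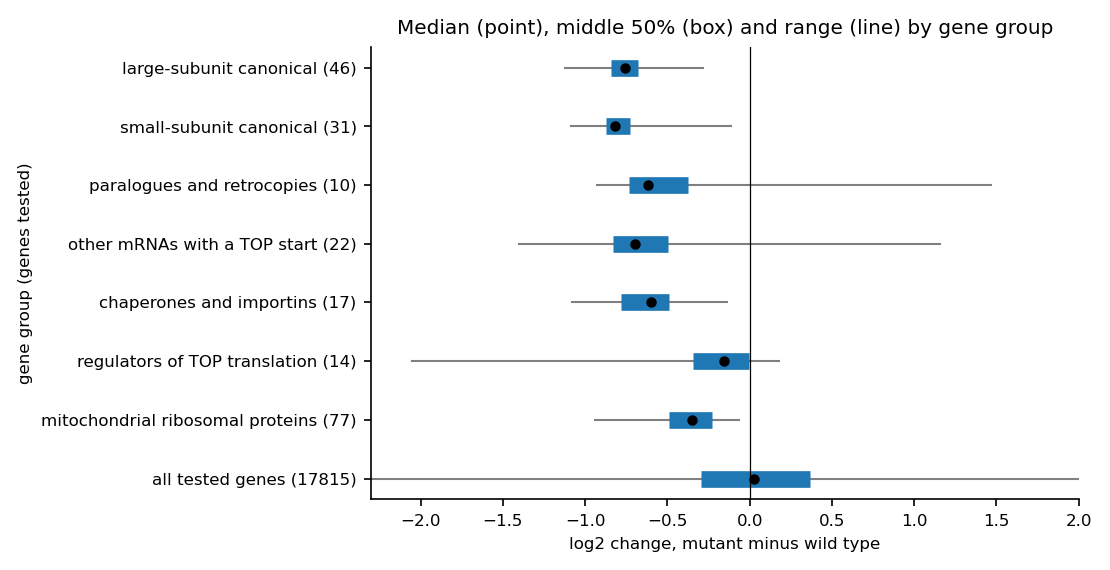
The x axis gives the log2 change, mutant minus wild type, for each gene group, as the median (point), the middle 50% of genes (box) and the full range (line), which for all tested genes runs beyond the axis. The medians are -0.76 and -0.82 for the canonical large-subunit and small-subunit genes, -0.35 for the mitochondrial ribosomal proteins and 0.03 for all tested genes.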

How the data were processed

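Gene-level signal values were deposited by the authors: read counts divided by 1 size factor per library, 1 column for each of 3 mutant and 3 wild-type libraries. Per the labels' protocols, cDNA was made with SMART-Seq v4, tagged with Nextera XT and sequenced as read pairs; these kits do not record strand, so antisense and overlapping genes cannot be separated. The submitters' processing notes name the tools STAR 2.5.3, featureCounts and DESeq2 1.20.0 and the builds mm10 and GRCm38, with counting options and annotation not given in the sources used here. Whole reads were recovered from each library's step for 100.0% of the 126810 values, to a tolerance of 0.1 reads. Symbols and exons came from GENCODE M21.

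The genotype test was limma 3.58.1 in R 4.3.3 (eBayes with a trend) applied to log2(value + 1) of the 17815 genes whose mean reached 10, as mutant minus wild type, two-sided, Benjamini-Hochberg adjusted over all of them at 0.05. On this scale rare transcripts show too small a change. Errors of changes are standard errors, and of levels SD over 3 libraries. Pair ratios used an exact permutation test (SciPy 1.17.1). On the recovered reads, edgeR 4.0.16 called 1823 genes lower and 1460 higher, and DESeq2 1.42.0 called 2272 and 1896. The scripts were tested on simulated data. Genes named are the paralogues with partners, members higher or not called, the extremes and highest levels, examples of each role, and up to 3 per list. Larp1, Mycn and Rpl14, and Rpl13a as a label in the plot of levels, were added after their values were seen. Some genes that these rules take are not reported here. The members and lists were chosen with earlier results of these data known. Replicate numbers do not pair the libraries: the deviations of same-numbered libraries correlated at -0.0218, -0.0664 and -0.0097.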

Additional observations from a re-analysis of the deposited data

How the results depend on the processing

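The count of 79 lower genes stayed within 1.5 times under all 22 alternatives (other scalings, pseudocounts, filters, variance models, count models, added pseudogene values, a length and abundance correction and leaving out 1 library), with 74 to 79 when 1 library was left out; the large-subunit count was then 44 to 48, the small-subunit count 30 to 31, the TOP list 16 to 19 and the chaperone list 11 to 12. Without a variance trend 66 members were lower, the fewest of all alternatives, with 41 in the large and 25 in the small subunit. No member was then higher (0), the mitochondrial count fell to 15, and Fau was not called (0). Over all tested genes 1167 were lower without the trend, against 1938 with it. Fau was also not called with the length and abundance correction together with the replicate block (0). Leaving out 1 library gave 17 to 41 lower mitochondrial genes, 0 to 1 for the count of Fau (not called without mutant replicate 2 or wild type replicate 2), and -0.56 to -0.40 for Rpl22l1, whose adjusted p was 0.0632 without a trend (-0.48). The direction turned for Rps14 (0.0267 with the length and abundance correction, with and without the block, and 0.00435 without mutant replicate 3; leaving out 1 library gave -0.244 to 0.00435), Rpl21 (0.0913 without mutant replicate 2; -0.571 to 0.0913) and Rpl36al (-0.0339 without wild type replicate 1 and -0.153 without mutant replicate 3; -0.153 to 0.239). Rps27 was called lower with library weights (adjusted p = 0.0227), with the block (0.0295) and without mutant replicate 1 (0.0187). Rpl10-ps3 lost its call in 16 of 22 alternatives and Rpl3l lost it without a trend (adjusted p = 0.0546). The causes were not tested.

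With the replicate number as a block, 79 members were lower, 48 large and 31 small, 1 was higher, 27 mitochondrial genes were lower and Rpl22l1 had an adjusted p of 0.0247; in all, 1727 genes were lower and 1339 higher, against 1938 and 1414 without it. The numbers do not pair the libraries. Equal totals moved the median of all genes to 0.08 and that of the members to -0.71. With the length and abundance correction the members' median was -0.62, against -0.77 in the main test. Members with few reads (Rpl39l, Rps12-ps3, Rpl36al, Rpl3l) are limited by depth, and a count of 0 in a library allows up to 3 reads.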
